A study of Homo sapiens with 18 samples.

Results

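The insulin and insulin-like growth factor (IGF) signalling genes IRS1, IRS2, IGF1R and IGFBP5 were followed through the open chromatin regions around them. The members were the regions of the authors' table that overlap a fixed window at each gene: chromosome 2, 227.55 to 227.75 Mb for IRS1, chromosome 13, 110.35 to 110.55 Mb for IRS2, chromosome 15, 99.14 to 99.56 Mb for IGF1R, and chromosome 2, 217.45 to 217.65 Mb for IGFBP5 (build hg19). The windows held 97 of the 132604 regions in the table: 11 at IRS1, 9 at IRS2, 52 at IGF1R and 25 at IGFBP5. Counts came from Omni-ATAC-seq, in which the Tn5 transposase cuts accessible DNA, so that reads pile up where chromatin is open. The cells were T47D, an established human breast carcinoma line with progesterone receptor. They were starved in medium with little serum, itself charcoal-stripped to remove steroids, and then given DMSO vehicle or R5020, at 0.1 nM or at 10 nM, and kept so for 6 h or for 18 h, with 3 libraries in each of 6 groups. R5020 (promegestone) is a synthetic progestin. The labels do not say whether libraries of the same group were separate cultures; the p-values then reflect only how these libraries scatter, part of which may be technical. The assay is done on bulk cells, so fewer cells with an open region and less opening in each cell cannot be told apart.

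IGF1R is a receptor tyrosine kinase that binds IGF1 and IGF2 at the cell surface. Once active it phosphorylates the adaptor proteins IRS1 and IRS2, which dock PI3-kinase and pass the signal on to AKT; the insulin receptor uses the same adaptors. IGFBP5 is a secreted protein that binds IGFs outside the cell and so sets how much ligand reaches the receptor. The pathway drives growth and survival of mammary epithelium and of breast carcinoma cells, and progestins are known to act on it in such cells.

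The promoters of the 4 genes are shown because the regions at the gene starts are compared below with regions farther away. Each line gives the 250 bases before the annotated start, from RefSeq (GRCh38.p14), read 5′ to 3′ on the gene's own strand. Capitals mark GC boxes (GGGCGG, or CCGCCC where the box is on the other strand) in IRS1, IRS2 and IGF1R, and a TATA-like TATTTAA in IGFBP5.
IRS1: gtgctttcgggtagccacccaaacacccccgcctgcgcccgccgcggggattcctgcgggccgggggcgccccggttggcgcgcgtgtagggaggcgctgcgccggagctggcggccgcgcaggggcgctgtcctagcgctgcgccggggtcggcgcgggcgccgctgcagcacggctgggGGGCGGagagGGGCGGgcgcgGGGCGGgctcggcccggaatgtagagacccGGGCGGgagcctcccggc
IRS2: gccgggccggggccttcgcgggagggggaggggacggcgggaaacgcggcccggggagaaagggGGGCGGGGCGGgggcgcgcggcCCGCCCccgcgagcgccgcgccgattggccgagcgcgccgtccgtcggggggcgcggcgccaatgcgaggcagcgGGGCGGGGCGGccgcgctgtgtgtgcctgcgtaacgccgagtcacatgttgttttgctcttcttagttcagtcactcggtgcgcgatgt
IGF1R: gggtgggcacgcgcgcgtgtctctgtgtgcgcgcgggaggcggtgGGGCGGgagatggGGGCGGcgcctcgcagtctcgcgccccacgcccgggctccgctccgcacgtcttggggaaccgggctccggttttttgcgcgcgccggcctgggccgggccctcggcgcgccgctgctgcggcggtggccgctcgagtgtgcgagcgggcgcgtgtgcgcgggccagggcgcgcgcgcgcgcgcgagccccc
IGFBP5: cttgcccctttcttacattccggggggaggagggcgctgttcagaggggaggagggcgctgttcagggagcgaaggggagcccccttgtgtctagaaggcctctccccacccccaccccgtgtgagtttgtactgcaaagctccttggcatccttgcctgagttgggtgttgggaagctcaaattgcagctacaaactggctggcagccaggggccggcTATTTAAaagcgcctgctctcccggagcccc

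The IGFBP5 promoter differed from the others in make-up. It held 61.2% G and C and 8 CpG pairs, against 80.8% and 39 at IRS1, 76.4% and 42 at IRS2, and 81.2% and 48 at IGF1R; the medians over all 35116 promoters of the table were 58.0% and 11. GC boxes numbered 4 in the IRS1 promoter, 5 in IRS2 and 2 in IGF1R, and 42.6% of all promoters of this length held at least 1; adjacent boxes in IRS2 share bases. The IGFBP5 promoter held none, and its TATTTAA begins 31 bases before the start, a motif found in 4.17% of promoters. The other 3 motifs were searched on both strands: AGAACA, the short recognition site of progesterone, glucocorticoid and androgen receptors (in 12.4% of promoters), GNACANNNTGTNC, a full palindromic hormone response element (0.327%), and the forkhead motif TGTTTAC (2.98%). These letters were in none of the 4 promoters, which is a description of 250 bases at each gene only. The gene windows themselves were not searched. AGAACA can also lie inside the palindrome, so their counts overlap.

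Levels are given as CPM, the count of a region relative to the library's total in regions, with totals adjusted by edgeR's TMM factors, and differences as log2 fold changes with their standard error. A region is called higher or lower when its adjusted p, from edgeR's quasi-likelihood test with Benjamini-Hochberg adjustment over all 132304 regions tested, is under 0.05. All 97 members passed the filter on low counts. Totals ran from 8756311 to 39984217 counts per library, of which 4415 to 21789 lay in the 4 windows. The top-region share, meaning how much of a library's counts fell into the 5000 strongest regions, was 34.1% ± 0.568 in the 10 nM group and 39.1% ± 2.29 in the vehicle group at 6 h. At 18 h it was 33.8% ± 3.15 and 38.2% ± 1.90 in the same order (SD, n = 3 each). At 6 h the libraries ran from 33.45% to 34.55% with 10 nM and from 37.11% to 41.6% with vehicle. Used as a covariate, the share therefore cannot be fully told apart from dose. Replicate 1 of the 10 nM group at 18 h stood apart from the other libraries, with a mean correlation of 0.844 with its group. Replicates 2 and 3 of that group had 0.882 and 0.880. The group held both the deepest and the shallowest library: replicates 1, 2 and 3 had 39984217, 10845301 and 8756311 counts. Regions lay within 1 kb of the starts of GATA3, FOXA1, CDH1, EPCAM and PGR, markers of luminal breast epithelium and the progesterone receptor, and none lay there at the leukocyte, hepatocyte, muscle and endothelial genes PTPRC, ALB, MYOD1 and CDH5. Regions are named by the distance of their midpoint from the gene start. The hg19 starts were entered from general knowledge and may be off by about 1 kb, since lengths of the 4 genes differed from the GRCh38.p14 table by up to 1157 bp. Positions are as the table lists them, and whether starts count from 0 or 1 is not stated there.

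At the 4 genes, some regions were more open with 10 nM R5020 and others less, at both times. At 6 h, 22 of the 97 regions rose and 16 fell relative to vehicle, or 22.7% and 16.5%, where 16.7% and 8.42% of all tested regions did so. At 18 h, 10 rose and 16 fell, where the table as a whole gave 12.8% and 7.56%. At 6 h IGF1R had 14 rises and 8 falls, IGFBP5 had 4 and 6, IRS1 had 2 and 2, and IRS2 had 2 rises and 0 falls. At 18 h the counts were 7 and 10 at IGF1R, 2 and 6 at IGFBP5, 1 and 0 at IRS2, and 0 and 0 at IRS1. The median log2 difference over the 97 regions was -0.02 at 6 h and -0.08 at 18 h, beside -0.05 and 0.01 over all tested regions. Without replicate 1 of the 6 h vehicle group the falls at 6 h numbered 10. Leaving out 10 nM replicate 1, vehicle replicate 1 or vehicle replicate 2 of the 18 h set each gave 6 rises at 18 h.

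**Figure D1:**
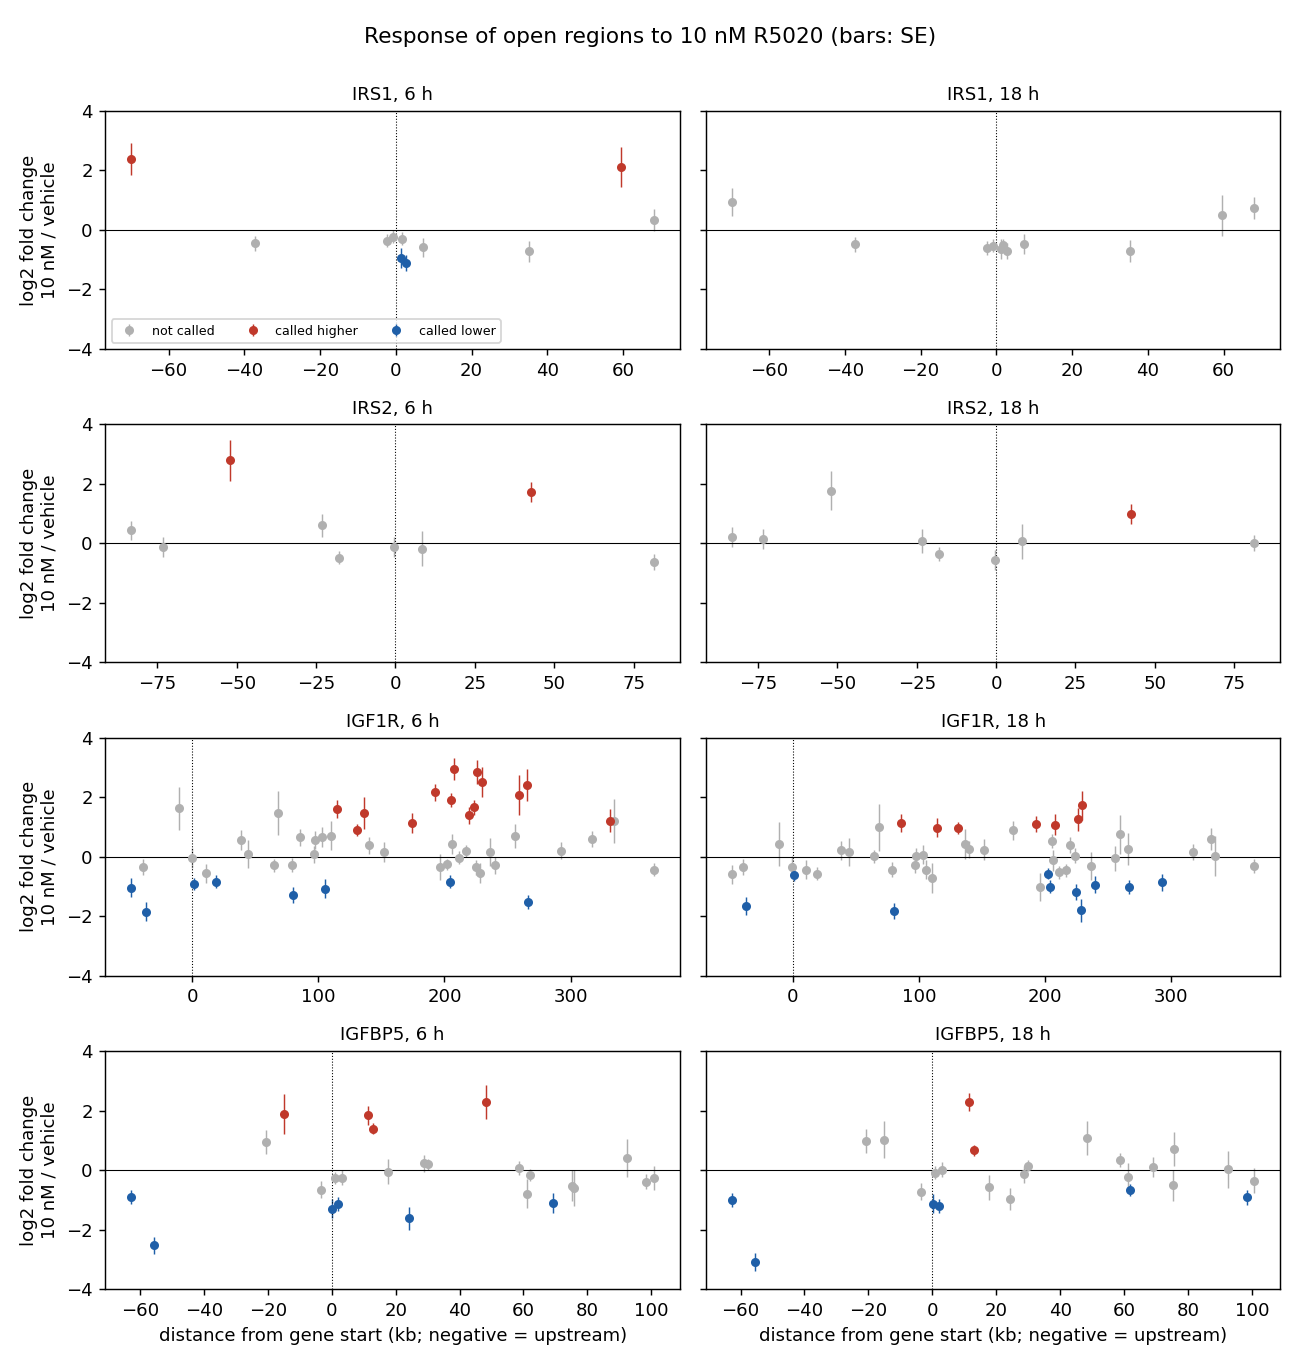
Log2 fold change of each of the 97 regions with 10 nM R5020 over vehicle (vertical axis; bars are standard errors) against its distance from the gene start in kb (horizontal axis, its range set for each gene), at 6 h on the left and 18 h on the right. Red points were called higher and blue points lower; IGF1R has 14 red and 8 blue at 6 h, most of the red more than 100 kb inside the gene, and IRS1 has none of either at 18 h.

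Regions that rose had low levels in vehicle and regions that fell had high ones. The median vehicle level was 1.05 CPM for the 22 that rose at 6 h, 6.86 CPM for the 16 that fell and 2.86 CPM for the 59 not called. The same order held over all tested regions, at 0.959, 5.91 and 2.17 CPM, so it is not particular to these genes. Vehicle is also 1 side of the comparison that made these classes, so part of the order is built in. Of the 22 regions higher at 6 h, 9 were also called higher at 18 h, which is 40.9% of the 6 h list and 90% of the 18 h list; over the whole table the shares were 60.8% and 79.2%. Of the 16 lower at 6 h, 9 were also lower at 18 h, or 56.2% of each list, against 58.3% and 64.9% over the whole table. No member was called in opposite directions at the 2 times. The 2 times share no library.

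The strongest fall was at IGFBP5, 55.5 kb upstream of its start (chr2:217615321-217616175). At 6 h this region had 2.58, 2.85 and 2.96 CPM in the 10 nM libraries, against 16.3, 17.1 and 14.9 CPM in the vehicle libraries. The 18 h values were 2.13, 0.654 and 1.40 CPM with 10 nM, against 14.5, 11 and 13 CPM with vehicle. Every 10 nM library was below every vehicle library at both times. The log2 fold change was -2.52 (SE 0.29, adjusted p = 2.37e-06) at 6 h and -3.08 (SE 0.31, adjusted p = 8.78e-07) at 18 h. The intermediate dose lay between: at 6 h the means were 16.1 ± 1.13 CPM with vehicle, 7.51 ± 1.82 CPM with 0.1 nM and 2.79 ± 0.196 CPM with 10 nM, and at 18 h they were 12.8 ± 1.77, 4.49 ± 1.71 and 1.39 ± 0.737 CPM in the same order (SD, n = 3 each). At 18 h 0.1 nM was lower than vehicle by a log2 fold change of -1.54 (SE 0.28, adjusted p = 0.00405) and 10 nM was lower than 0.1 nM by another -1.54 (SE 0.32, adjusted p = 0.00273). At 6 h 10 nM was lower than 0.1 nM by -1.42 (adjusted p = 0.00107), and 0.1 nM against vehicle gave -1.10 with an adjusted p of 0.0523. Of the 97 members, this was the one region called lower with 0.1 nM, at 18 h. When the 2 compared groups were fitted alone, the 18 h difference between the doses had an adjusted p of 0.0714.

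The region at the IGFBP5 start fell as well. At 6 h it had 3.19, 2.54 and 3.40 CPM with 10 nM, against 10.8, 5.86 and 5.99 CPM with vehicle; at 18 h it had 3.81, 2.45 and 2.33 CPM against 8.36, 5.40 and 5.42 CPM. The groups did not overlap at either time, and the log2 fold changes were -1.29 (SE 0.32, adjusted p = 0.0053) and -1.12 (SE 0.33, adjusted p = 0.0181). The call at 6 h was lost without replicate 1 of the vehicle group (adjusted p = 0.0573). At 18 h it was lost without replicate 2 or 3 of the 10 nM group (0.0725 and 0.0776) or vehicle replicate 1 (0.119). With the top-region share as a covariate the log2 fold changes were -0.53 at 6 h and -0.56 at 18 h, and neither was called. Other regions of the window moved the same way at both times: the one 2.1 kb downstream, by -1.14 (adjusted p = 0.00101) and -1.20 (adjusted p = 0.000958), and the one 62.7 kb upstream, by -0.90 (adjusted p = 0.00671) and -0.99 (adjusted p = 0.0045). Nearer the start, the groups overlapped at 1.0 kb downstream. That region had 7.03, 5.61 and 5.80 CPM with 10 nM at 6 h, against 7.98, 7.92 and 6.07 CPM with vehicle. At 24.3 kb downstream, beside the 3′ end of the gene, a region fell to 6.42 ± 0.13 CPM with 10 nM at 6 h, against 19.8 ± 4.29 CPM with vehicle (log2 fold change -1.62, adjusted p = 0.00293); at 18 h the means were 10.3 ± 4.62 and 20.01 ± 7.80 CPM (-0.98, adjusted p = 0.0688).

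Inside the IGFBP5 gene a pair of regions moved the other way. The region 11.5 kb downstream of the start (chr2:217548681-217548960) had 5.90, 7.17 and 7.55 CPM with 10 nM at 6 h, against 0.735, 2.36 and 2.35 CPM with vehicle. The 18 h libraries had 12.2, 8.59 and 12.5 CPM, against 3.02, 1.54 and 2.18 CPM. The log2 fold change was 1.85 (SE 0.32, adjusted p = 0.00019) at 6 h and 2.30 (SE 0.31, adjusted p = 2.18e-05) at 18 h. It was also higher with 10 nM than with 0.1 nM, by 1.30 (adjusted p = 0.00327) and 1.29 (adjusted p = 0.00673). With 0.1 nM it had 2.60, 3.28 and 2.53 CPM at 6 h and 5.51, 4.56 and 3.40 CPM at 18 h. Neither was called against vehicle. The region 13 kb downstream, 1146 bp away, had 18.1, 20.6 and 19.1 CPM with 10 nM at 6 h, against 7.14, 7.70 and 6.96 CPM with vehicle, a log2 fold change of 1.40 (SE 0.18, adjusted p = 1.08e-05). At 18 h its rise was 0.67 (SE 0.18, adjusted p = 0.0115), a call that was lost without replicate 1 of the 10 nM group (adjusted p = 0.0604) or with the 2 groups fitted alone (0.0658). A weaker region 48.3 kb downstream lies past the end of the gene, which spans 23445 bp, on the side of the neighbouring gene IGFBP2. It rose at 6 h to 1.90 CPM with 10 nM, against 0.400 CPM with vehicle (2.29, adjusted p = 0.00527). The region with the highest mean level of the window, 30 kb downstream with 22.6 CPM over all libraries, was not called in either comparison with vehicle (0.20 and 0.15); with the covariate the 6 h value was 0.50, called higher (adjusted p = 0.0207). The window as a whole summed to 135 ± 3.50 CPM in the 10 nM group and 168 ± 11.8 CPM in the vehicle group at 6 h, and to 120 ± 5.37 and 154 ± 9.004 CPM at 18 h. In the 0.1 nM group the window summed to 150 ± 13.8 CPM at 6 h and 121 ± 7.70 CPM at 18 h, there as low as with 10 nM. It also holds the start of IGFBP2, another IGF binding protein, and the region there, 61.9 kb downstream of the IGFBP5 start, fell at 18 h (-0.66, adjusted p = 0.0208) and had -0.16 at 6 h (adjusted p = 0.598).

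**Figure D2:**
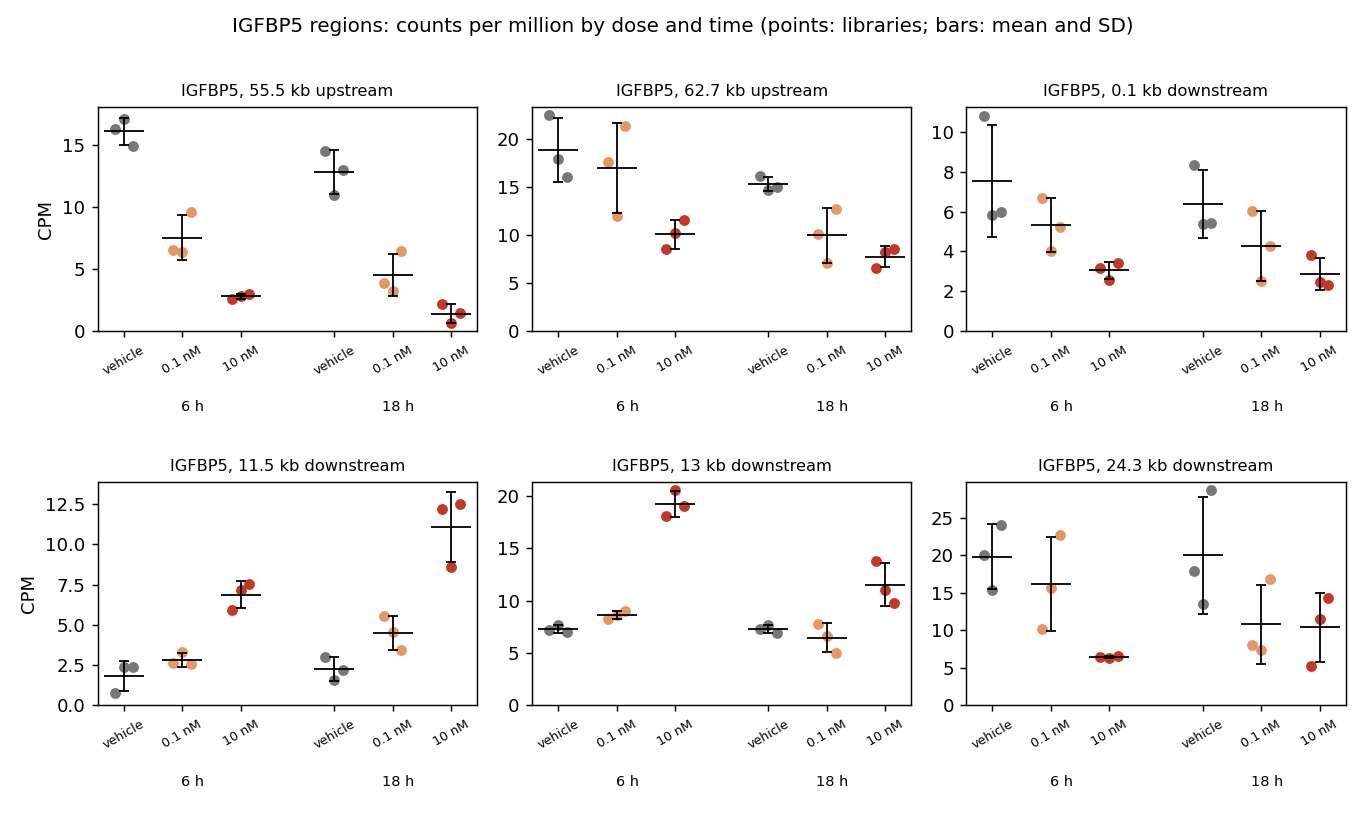
Levels in CPM of 6 IGFBP5 regions (vertical axes from 0), by dose from vehicle to 10 nM at 6 h and at 18 h; points are libraries and bars the mean with SD, n = 3 per group. Mean levels step down with dose at both times 55.5 kb upstream and step up 11.5 kb downstream. At these regions, the only called step from vehicle to 0.1 nM was the 18 h fall 55.5 kb upstream.

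IGF1R showed most of its rises far inside the gene, and the region at its start was not called in the main fit. The region at the start, which also had the highest mean level of the window (37.9 CPM), had 44.6, 37.4 and 39.05 CPM with 10 nM at 6 h, against 45.2, 44.5 and 33.6 CPM with vehicle. At 18 h it had 51.6, 26.5 and 21.3 CPM, against 55.5, 40.1 and 29.7 CPM. The groups overlapped at both times, and the log2 fold changes were -0.03 (SE 0.34, adjusted p = 0.969) and -0.33 (SE 0.34, adjusted p = 0.539). With the top-region share as a covariate they were 0.999 at 6 h and 0.52 at 18 h, both called higher. That share went with dose at 6 h, so no direction is given for this region. The neighbouring region 1.2 kb downstream fell, by -0.93 (SE 0.20, adjusted p = 0.00166) and -0.61 (SE 0.20, adjusted p = 0.0356).

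Of the 14 regions at IGF1R that rose at 6 h, 7 lay between 190 and 240 kb downstream of the start, a stretch of 17 regions marked out after the values were seen. The region 207.7 kb downstream (chr15:99399795-99400067) had 5.11, 5.56 and 5.74 CPM with 10 nM at 6 h, against 1.05, 0.700 and 0.405 CPM with vehicle. The log2 fold change was 2.95 (SE 0.36, adjusted p = 4.16e-06). These 3 libraries given 10 nM lay above every other library of the series at this region. With 0.1 nM it had 2.27, 2.21 and 1.36 CPM, all above vehicle (1.46, SE 0.36, adjusted p = 0.0516), and 10 nM exceeded 0.1 nM by 1.49 (adjusted p = 0.00151). Within the stretch, the next 3 regions by size of rise at 6 h were 226.0 kb downstream with 2.85 (SE 0.41, adjusted p = 2.76e-05), 229.4 kb with 2.51 (SE 0.50, adjusted p = 0.000749) and 192.6 kb with 2.17 (SE 0.28, adjusted p = 1.08e-05). The remaining rises of the stretch, picked out after their values were seen, were 1.91 at 205.5 kb, 1.66 at 223.8 kb and 1.40 at 219.8 kb, with adjusted p of 5.46e-06, 3.51e-05 and 0.000895.

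The 1 region of this stretch called lower at 6 h lay beside a region called higher. The region 205.5 kb downstream had 12.8, 14.4 and 18.0 CPM with 10 nM at 6 h, against 3.78, 4.42 and 3.80 CPM with vehicle. The region 204.1 kb downstream, whose edge is 244 bp away, had 20.5, 25.3 and 27.3 CPM with 10 nM, against 53.3, 43.8 and 33.9 CPM with vehicle, a log2 fold change of -0.84 (SE 0.22, adjusted p = 0.00772). So 1 of the pair was higher and the other lower in the same libraries. Beyond the stretch, at 265.8 and 266.6 kb downstream, regions 391 bp apart had log2 fold changes at 6 h of 2.42 (adjusted p = 0.00237) and -1.53 (adjusted p = 6.46e-05). A scaling factor applies to a whole library, so the ratio between such neighbours is the same under any scaling. That does not cover shifts that depend on how strong a region is. In both pairs the region with the higher vehicle level fell, and the top-region share differed between the groups at 6 h. Whether the opposite changes go with region strength was not tested.

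**Figure D3:**
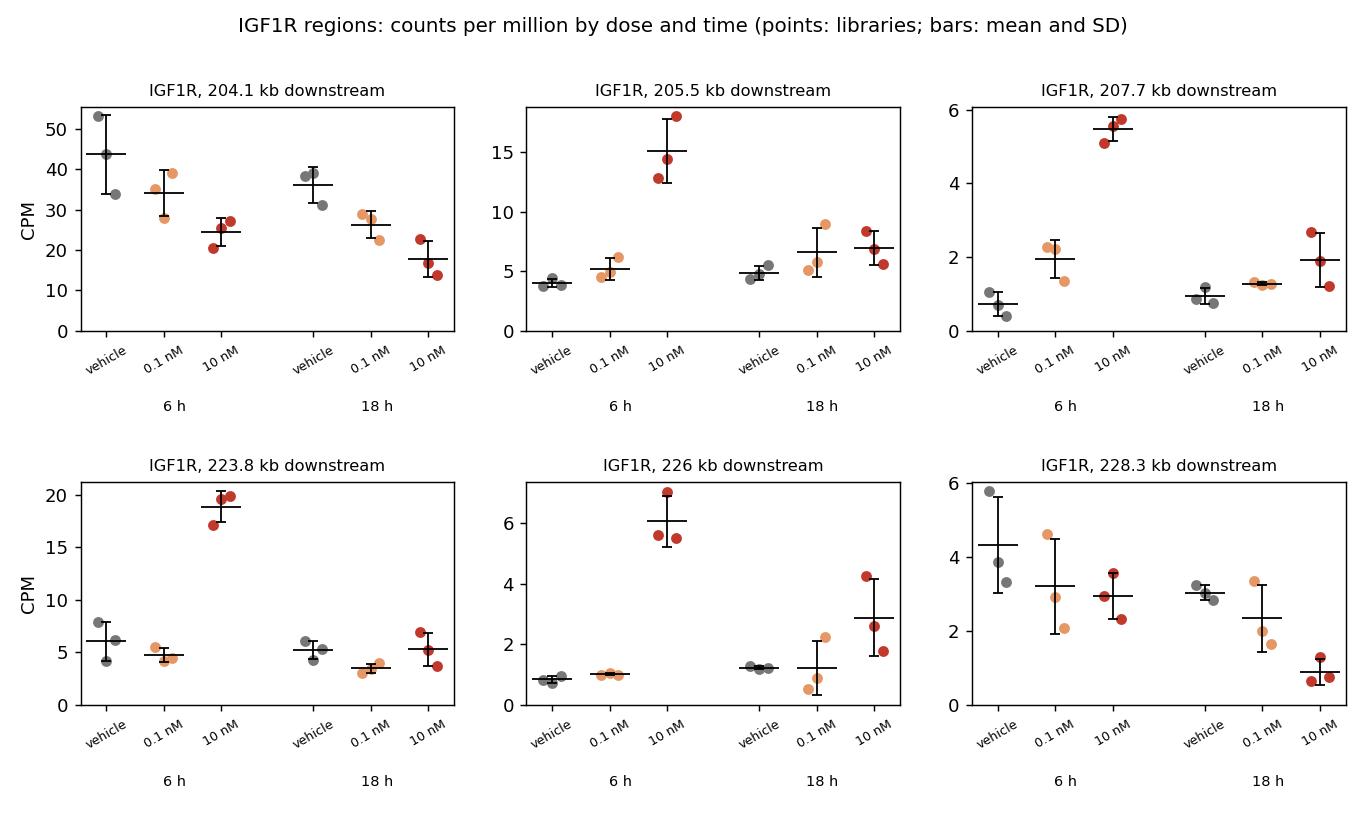
Levels in CPM of 6 regions of the IGF1R stretch (vertical axes from 0), by dose from vehicle to 10 nM at 6 h and at 18 h; points are libraries and bars the mean with SD, n = 3 per group. The regions 205.5, 207.7, 223.8 and 226.0 kb downstream stand high with 10 nM at 6 h and lower at 18 h. The mean level 204.1 kb downstream goes down with dose. No IGF1R region was called between 0.1 nM and vehicle at either time.

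Of the 26 IGF1R regions upstream of its start or less than 190 kb downstream, 4 rose and 6 fell at 6 h, and 3 rose and 3 fell at 18 h. The region 37.0 kb upstream (chr15:99155006-99155420) had 2.15, 2.27 and 1.38 CPM with 10 nM at 6 h, against 7.35, 7.51 and 5.75 CPM with vehicle, and 2.89, 2.94 and 1.77 CPM against 10.2, 8.59 and 5.42 CPM at 18 h. The log2 fold changes were -1.84 (SE 0.31, adjusted p = 0.000175) and -1.65 (SE 0.31, adjusted p = 0.000635), with no overlap of the groups. With 0.1 nM the mean was 7.26 CPM at 6 h, close to vehicle (0.07, adjusted p = 0.997), so the fall at 6 h was seen with 10 nM against either group (-1.92 against 0.1 nM, adjusted p = 0.000142). The region 79.9 kb downstream fell by -1.29 (adjusted p = 0.000925) and -1.83 (adjusted p = 5.71e-05) at 6 h and 18 h. Past the stretch, the region 266.6 kb downstream fell again at 18 h, by -1.03 (adjusted p = 0.00371). The region 105.4 kb downstream fell at 6 h by -1.07 (adjusted p = 0.0139). That call was lost without 10 nM replicate 1 or 2 (0.0764 and 0.0704) or vehicle replicate 1 (0.109), and with the top-region share as a covariate (-0.67, adjusted p = 0.186). The region 85.7 kb downstream rose at 18 h (1.14, adjusted p = 0.00857) and had 0.66 at 6 h (adjusted p = 0.106).

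Within the 10 nM group, several IGF1R regions were less open at 18 h than at 6 h. In that comparison, 7 of the 97 regions were lower at 18 h and 0 were higher, where 1.13% and 0.112% of all tested regions were; 6 of the 7 were at IGF1R, between 205.5 and 228.3 kb downstream, and 1 at IGFBP5. The one with the lowest adjusted p was the region 223.8 kb downstream, with 6.91, 5.23 and 3.73 CPM at 18 h, against 17.1, 19.6 and 19.9 CPM at 6 h, a log2 fold change of -1.81 (SE 0.24, adjusted p = 0.00101). At 18 h its 10 nM libraries overlapped those of vehicle, with 6.08, 4.32 and 5.36 CPM (0.04, adjusted p = 0.933). The region 207.7 kb downstream fell to 2.68, 1.88 and 1.21 CPM at 18 h, with a log2 fold change against 6 h of -1.45 (adjusted p = 0.0227), and still exceeded vehicle at 18 h by 1.08 (SE 0.34, adjusted p = 0.0282). The others were 205.5 kb (-1.10, adjusted p = 0.0156), 216.8 kb (-1.01, adjusted p = 0.0199), 224.9 kb (-1.20, adjusted p = 0.025) and 228.3 kb (-1.75, adjusted p = 0.0217) downstream at IGF1R, and 13 kb downstream at IGFBP5 (-0.73, adjusted p = 0.0477). The count of 7 was 2 without replicate 2 or 3 of the 18 h group or without replicate 2 or 3 of the 6 h group, 3 without replicate 1 of the 6 h group, and 1 with the 2 groups fitted alone. Depth was 21015917 to 33726875 counts in the 6 h group and 8756311 to 39984217 in the 18 h group. Its part in these differences was not tested.

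That comparison leaves out vehicle, so the change in response was tested as well. For the response to 10 nM, 0 of the 97 regions differed between 18 h and 6 h by edgeR's test, where 0.00151% of all tested regions did, in the lower direction; 13 members had an unadjusted p under 0.05, and DESeq2 called 1 lower. The lowest adjusted p of a member was 0.161, for the region 223.8 kb downstream of the IGF1R start (-1.62, SE 0.34). In vehicle, neither edgeR nor DESeq2 called a member between 18 h and 6 h (0 of 97; 3 had an unadjusted p under 0.05), and 0% of all regions were called. With 0.1 nM both tools also gave 0 (11 had an unadjusted p under 0.05), where 0% of all regions were higher and 0.00151% lower. The response to 0.1 nM gave 0 by both tools as well (2 had an unadjusted p under 0.05), and 0% of all regions.

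**Figure D4:**
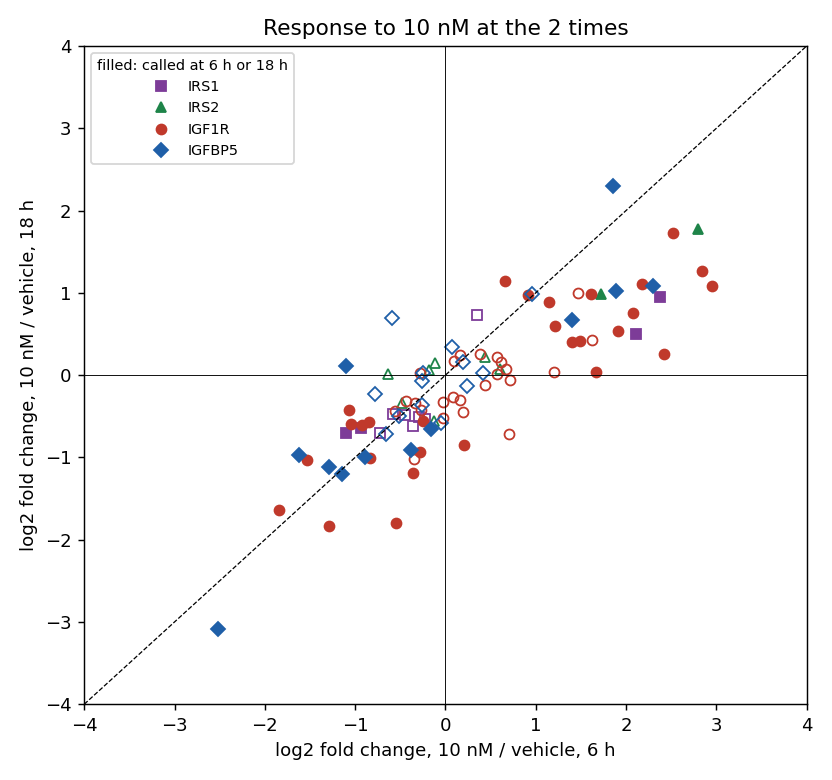
Log2 fold change of the 97 regions with 10 nM over vehicle at 18 h (vertical axis) against the same at 6 h (horizontal axis); the dashed line marks equal change and filled symbols were called at either time. The IGFBP5 region 55.5 kb upstream stands alone at the lower left.

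Some IGF1R regions were lower than vehicle at 18 h and not at 6 h. The region 228.3 kb downstream had a log2 fold change of -1.80 (SE 0.38, adjusted p = 0.00164) at 18 h and -0.55 (adjusted p = 0.252) at 6 h, and the one 224.9 kb downstream had -1.19 (SE 0.27, adjusted p = 0.00274) and -0.36 (adjusted p = 0.322). The differences between the 2 responses were -1.26 (adjusted p = 0.747) and -0.83 (adjusted p = 0.823), so neither was shown to differ. The regions 226.0 and 229.4 kb downstream, on either side of the one at 228.3 kb, remained higher than vehicle at 18 h, by 1.26 (adjusted p = 0.0225) and 1.73 (adjusted p = 0.0176). At 226.0 kb that call was lost without replicate 1 of the 10 nM group (0.144) or vehicle replicate 1 or 2 (0.0658 and 0.0736). At 229.4 kb it was lost without replicate 3 of the 10 nM group (0.0714) or vehicle replicate 1 or 2 (0.0973 and 0.077), and with that covariate (1.10, adjusted p = 0.0947). At 192.6 kb downstream the rise of 1.11 at 18 h (adjusted p = 0.0066) held under all 16 alternatives tried for it. Summed over the IGF1R window, levels were 342 ± 14.03 CPM in the 10 nM group and 317 ± 29.9 CPM in the vehicle group at 6 h, and 236 ± 43.6 and 291 ± 32.7 CPM at 18 h. With 0.1 nM they were 295 ± 20.2 CPM at 6 h and 263 ± 33.4 CPM at 18 h.

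Few of these regions were called with the lower dose. With 0.1 nM at 6 h, 0 of the 97 were called by edgeR's test, where 0.949% of all tested regions were higher and 0.241% lower; 7 had an unadjusted p under 0.05, and DESeq2 called 1 higher and 1 lower. At 18 h 1 was higher and 1 lower, where 1.74% and 0.698% of all regions were. Without replicate 1 of the 18 h 0.1 nM group these counts were 0 and 2, and without replicate 2 of that group 2 were higher. Set against 0.1 nM, 10 nM gave 20 higher and 10 lower at 6 h (15.1% and 5.25% of all tested regions) and 6 higher and 9 lower at 18 h (6.67% and 4.22%). Without replicate 3 of the 0.1 nM group the 10 lower at 6 h became 6, and without replicate 1 of the 18 h 0.1 nM group the 9 lower became 3. Fitted alone, the 2 groups at 18 h gave 2 higher and 1 lower. With replicate number added as a block the 18 h counts were 9 and 12. Where 10 nM was called higher than vehicle at 6 h, the mean with 0.1 nM lay between vehicle and 10 nM at 18 of 22 regions, and where it was called lower, at 14 of 16. At 18 h it did so at 5 of 10 and 15 of 16. These regions were chosen for the gap between 10 nM and vehicle, which favours a mean in between. The same was not counted over the whole table, so no graded response is read from these counts.

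The 1 region called higher with 0.1 nM did not follow the order of doses. It lies at IRS2, 81.4 kb downstream of the start and beyond the end of the gene (chr13:110357145-110357878). At 18 h it had 4.92, 4.99 and 4.07 CPM with vehicle, 14.9, 12.1 and 6.71 CPM with 0.1 nM, and 4.94, 4.99 and 4.20 CPM with 10 nM. All 3 libraries given 0.1 nM were above all libraries of the other 2 groups, which overlapped. The log2 fold change with 0.1 nM over vehicle was 1.28 (SE 0.26, adjusted p = 0.00824), and with 10 nM over 0.1 nM it was -1.26 (SE 0.26, adjusted p = 0.00304). At 6 h the means were 5.22 ± 0.223 CPM with vehicle, 7.21 ± 1.26 CPM with 0.1 nM and 3.34 ± 1.02 CPM with 10 nM (SD, n = 3 each); 10 nM against 0.1 nM gave -1.10 (SE 0.26, adjusted p = 0.00437) and 0.1 nM against vehicle 0.46 (adjusted p = 0.703). Without replicate 1 of the 0.1 nM group at 18 h, the library with the highest value, the log2 fold change over vehicle was 1.02 (adjusted p = 0.0789). Another region with its highest mean at 0.1 nM lies at IGF1R, 206.3 kb downstream, with 1.83 CPM in vehicle, 4.28 CPM with 0.1 nM and 1.68 CPM with 10 nM at 18 h. There 10 nM was lower than 0.1 nM by -1.34 (adjusted p = 0.0132), which was lost without replicate 1 of the 0.1 nM group (0.0633) or with the 2 groups fitted alone (0.0501), and 0.1 nM over vehicle had 1.22 (adjusted p = 0.0588).

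Elsewhere at IRS2, which encodes the adaptor that carries insulin signalling in many tissues, 10 nM raised regions on both sides of the gene. The region 42.6 kb downstream of the start (chr13:110396129-110396429), past the gene's end, had 4.78, 5.39 and 5.21 CPM with 10 nM at 6 h, against 1.58, 1.55 and 1.54 CPM with vehicle. The log2 fold change was 1.72 (SE 0.33, adjusted p = 0.000641), and 10 nM exceeded 0.1 nM by 1.28 (adjusted p = 0.00553). By 18 h the values were 4.05, 2.54 and 2.61 CPM, against 1.25, 1.18 and 2.36 CPM (0.98, SE 0.33, adjusted p = 0.04). The groups did not overlap at either time, but the 18 h call was lost without replicate 1 of the 10 nM group (0.167) or vehicle replicate 1 or 2 (0.173 and 0.166), or with the 2 groups fitted alone (0.112). The region 52.1 kb upstream rose at 6 h to 1.12, 1.38 and 1.99 CPM with 10 nM, against 0.525, 0.0737 and 0.162 CPM with vehicle (2.79, SE 0.69, adjusted p = 0.00473), a gain on a low level. The region at the IRS2 start had 28.4 ± 0.952 CPM with 10 nM at 6 h and 30.97 ± 3.85 CPM with vehicle (-0.12, adjusted p = 0.826), and 21.3 ± 9.37 and 31.7 ± 8.75 CPM at 18 h (-0.56, adjusted p = 0.247). With the top-region share as a covariate the 6 h value was 0.86, called higher. Without replicate 1 of the 10 nM group the 18 h value was -0.98 (adjusted p = 0.0409). No IRS2 region was called lower than vehicle with 10 nM at either time by edgeR or DESeq2.

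IRS1, the adaptor first known as a substrate of the insulin receptor, had changes at 6 h and none that passed the test at 18 h. Its start region had 13.6, 14.2 and 13.9 CPM with 10 nM at 6 h, against 15.9, 19.1 and 13.5 CPM with vehicle, overlapping groups (-0.22, SE 0.22, adjusted p = 0.5). At 18 h it had 12.8, 12.6 and 9.14 CPM, against 17.98, 18.01 and 14.03 CPM, which did not overlap but missed the threshold (-0.53, SE 0.22, adjusted p = 0.103). Just inside the gene, the region 2.7 kb downstream fell at 6 h to 2.11, 2.49 and 2.49 CPM with 10 nM, against 5.46, 3.94 and 6.07 CPM with vehicle (-1.11, SE 0.27, adjusted p = 0.00395), and 10 nM was lower than 0.1 nM by -1.09 (adjusted p = 0.00454). The region 1.3 kb downstream had -0.94 (adjusted p = 0.0465), a call lost without any one of 5 of the 6 compared libraries (adjusted p between 0.0689 and 0.227), with other scalings, with other filters and with the 2 groups fitted alone. Far upstream, 69.8 kb from the start, a weak region rose at 6 h to 1.08, 1.29 and 1.20 CPM with 10 nM, against 0.210, 0.221 and 0.243 CPM with vehicle (2.37, SE 0.53, adjusted p = 0.00233). The region 59.5 kb downstream, chosen after its values were seen, rose at 6 h as well, with 1.05 CPM against 0.229 CPM (2.11, SE 0.69, adjusted p = 0.0282).

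At 18 h 0 IRS1 regions were called by edgeR or by DESeq2, and 4 had an unadjusted p under 0.05. Without replicate 1 of the 10 nM group 3 were called lower, without its replicate 2 there were 2, and without vehicle replicate 1 there was 1. The region with the highest mean level of the IRS1 window was 37.3 kb upstream, with 34.1 CPM. By the entered position it lies at the start of the neighbouring gene RHBDD1. The length entered for RHBDD1 differed from the GRCh38.p14 table by 35442 bp, so that start is less sure. The region had -0.45 at 6 h (adjusted p = 0.212) and -0.49 at 18 h (adjusted p = 0.193). At 18 h it was called lower without replicate 1 of the 10 nM group (-0.75, adjusted p = 0.0425). The window summed to 95.3 ± 1.95 CPM in the 10 nM group and 128 ± 28.4 CPM in the vehicle group at 6 h, and to 78.9 ± 18.7 and 111 ± 14.9 CPM at 18 h. The IRS2 window summed to 50.4 ± 0.572 CPM and 50.3 ± 7.75 CPM, and to 40.6 ± 9.60 and 49.1 ± 9.97 CPM. With 0.1 nM the sums at 6 h and 18 h were 116 ± 13.8 and 95.8 ± 25.0 CPM at IRS1. At IRS2 they were 52.5 ± 6.27 and 49.9 ± 19.2 CPM.

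**Figure D5:**
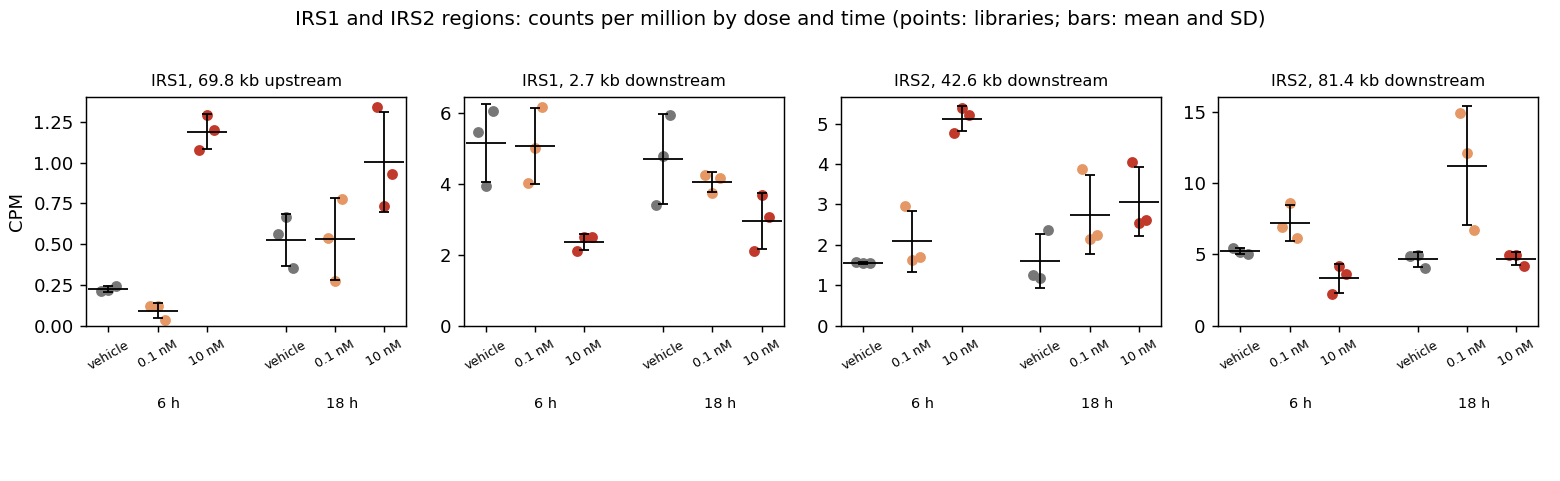
Levels in CPM of 2 IRS1 and 2 IRS2 regions (vertical axes from 0), by dose from vehicle to 10 nM at 6 h and at 18 h; points are libraries and bars the mean with SD, n = 3 per group. At IRS2, 81.4 kb downstream, the libraries given 0.1 nM stand highest, and the other 3 regions show their largest difference from vehicle with 10 nM at 6 h.

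At the starts of the 4 genes, then, the main fit called the IGFBP5 region lower at both times. It called those of IRS1, IRS2 and IGF1R at neither. Both IGFBP5 calls were lost with the top-region share as a covariate, and without replicate 1 of the vehicle group. With that covariate the IGF1R start was called higher at both times and the IRS2 start at 6 h. The contrast therefore holds for the main fit only. Per kb of region, mean levels over all 18 libraries were 22.7 CPM at the IRS2 start, 20.7 CPM at IGF1R, 18.2 CPM at IRS1 and 11.03 CPM at IGFBP5. The start regions of IGF1R and IRS2 varied between libraries of a group at 18 h along with the top-region share. In the 10 nM libraries with shares of 37.2%, 32.96% and 31.1%, the IRS2 start had 31.6, 18.9 and 13.3 CPM and the IGF1R start 51.6, 26.5 and 21.3 CPM. The part of that share in the differences between groups was not tested beyond the covariate fit above.

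Regions most like the leading region of each window were sought by the correlation of log2 CPM over the 18 libraries, which share dose and time groups; these are descriptions with no test. The IGFBP5 region 55.5 kb upstream was most like chr6:46950446-46951316 (r = 0.984), chr6:67795786-67796630 (r = 0.981) and chr5:89602493-89602868 (r = 0.976). The IGF1R region 207.7 kb downstream was most like chr14:67860426-67861002 (r = 0.962), chr3:57958230-57958954 (r = 0.956) and chr17:79017204-79018853 (r = 0.953). For the IRS2 region 42.6 kb downstream the 3 highest r were 0.932, 0.929 and 0.929, and for the IRS1 region 69.8 kb upstream 0.918, 0.918 and 0.914.

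Among 17 other genes of the pathway, each taken with 50 kb on either side, 41 of 246 tested regions rose with 10 nM at 6 h and 6 fell, where 16.7% and 8.42% of all tested regions did. At 18 h 30 rose and 8 fell, where 12.8% and 7.56% did. Such regions may lie nearer to other genes, and the gene lengths entered differed from the GRCh38.p14 table by up to 5781 bp. The highest counts of rises at 6 h were 9 of 18 at IGF2R, the receptor that clears IGF2, 7 of 32 at the adaptor GRB10, which restrains signalling by the insulin and IGF1 receptors, and 4 of 10 at PIK3R1, a regulatory subunit of PI3-kinase. At GRB10 a region (chr7:50675145-50675652) reached 12.4 ± 3.84 CPM with 10 nM at 6 h, against 0.722 ± 0.627 CPM with vehicle, a log2 fold change of 3.94 (SE 0.53, adjusted p = 1.55e-05). At IGF2R one (chr6:160484875-160485400) reached 7.85 ± 1.03 CPM, against 1.07 ± 0.13 CPM (2.88, SE 0.37, adjusted p = 9.32e-06). At INSR, the insulin receptor, 0 of 12 regions were called at 6 h and 1 rose at 18 h. With 0.1 nM, 2 of the 246 rose at 6 h and 4 at 18 h, where 0.949% and 1.74% of all tested regions did, and 0 fell at either time, where 0.241% and 0.698% did. The region with the largest rise at 18 h lies within the positions entered for FOXO3, a transcription factor held in check by AKT (chr6:108910235-108911004; 1.75 at 6 h and 1.55 at 18 h, adjusted p = 3.7e-05 and 0.000106), where 10 nM gave 1.59 and 1.37.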

How the data were processed

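Omni-ATAC-seq counts of 18 T47D libraries were used. The authors deposited 1 table of raw read counts per region, with 1 list of regions for all libraries. BWA, MACS2 and build hg19 are named in the submitters' processing notes. Their versions, read filters, any Tn5 shift and how regions were merged were not given in the sources used here. The table names no genes. The members and the gene lists were chosen with earlier results of these data known.

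Columns were matched to samples by title. The main fit was edgeR 4.0.16 (R 4.3.3): filterByExpr (minimum count 10, total 15), TMM factors, quasi-likelihood test on 6 group means over all 18 libraries with 12 residual degrees of freedom, and Benjamini-Hochberg adjustment over 132304 regions. Standard errors are the absolute log2 fold change divided by the square root of F. For log2 CPM the prior count was 2. The procedure was also run on simulated counts with known changes put in, whose outcome is not reported here. Those counts were drawn independently, with no difference in top-region share and no library standing apart. The simulation therefore cannot show how the procedure deals with these features.

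Depth was 8756311 to 39984217 counts in regions per library, which sets the precision at weak regions. Chi-square per degree of freedom between libraries of a group was 3.27 or more, beyond counting noise, and no library was merged with another; this does not tell separate cultures and repeat preparations apart. Named regions are those at or nearest each gene's start, the highest of each window, and up to 4 rises and 4 falls for each gene and comparison with vehicle (mean log2 CPM of at least 0), or up to 2 between doses, in all 31; others named in the text were chosen after their values were seen. Same-numbered libraries deviated together, with every correlation over 0.1, between 10 nM and 0.1 nM at 18 h (0.599, 0.192 and 0.454) and between the vehicle groups (0.317, 0.121 and 0.446); the labels do not say what a number marks. The alternatives were other scalings, filters, tools, designs and thresholds, narrower windows and leaving out each library. The sequences come from the RefSeq promoter table of GRCh38.p14; region sequences were not used here, since no hg19 genome was at hand.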

Additional observations from a re-analysis of the deposited data

How the results depend on the processing

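Of 62 named results called, 40 stayed called under every alternative other than the 2 stricter thresholds. The directions that turned were those of the start regions with the top-region share as a covariate: at IGF1R the log2 fold change with 10 nM over vehicle was 0.999 at 6 h and 0.52 at 18 h, and at IRS2 it was 0.86 at 6 h. The cause was not tested. None of these was called in the main fit, and the share cannot be fully told apart from dose. That covariate gave 14 regions lower with 10 nM at 18 h than at 6 h and 3 lower in the change of response, and 3 higher and 3 lower with 0.1 nM at 18 h. With the replicate block the counts were 9 higher and 12 lower for 10 nM against 0.1 nM at 18 h, 1 and 1 for 0.1 nM against vehicle at 6 h, 3 and 3 at 18 h, 1 lower in the change of response to 10 nM, and 0 between the vehicle groups. The block also gave 4 IRS1 regions lower with 10 nM than with vehicle at 18 h, where 0 were called without it, among them the start (-0.54, adjusted p = 0.0392) and the region 37.3 kb upstream (-0.51, adjusted p = 0.0454); same-numbered libraries of those groups had correlations of 0.357, 0.014 and 0.353, so they share only a number. Fitting the compared groups alone gave, for 10 nM at 18 h, 6 higher and 10 lower against vehicle, 2 higher and 1 lower against 0.1 nM, and 1 lower against 6 h, and 1 lower for 0.1 nM at 6 h; this leaves fewer samples to estimate the spread. An adjusted p under 0.01 gave 4 higher and 9 lower for 10 nM against vehicle at 18 h, 6 lower at 6 h and 2 lower at 18 h against 0.1 nM, and 1 lower at 18 h against 6 h. A log2 fold change of at least 1 left 6 higher and 9 lower against vehicle at 18 h and 6 lower against 0.1 nM at 6 h. Windows cut to the gene with 20 kb on each side held 6 of the regions lower than 0.1 nM at 6 h and 0 of the 2 called with 0.1 nM at 18 h. For 0.1 nM at 6 h, 1 region was higher with library totals, with no filter, with a mean CPM of at least 1, with the covariate and with DESeq2, and 1 lower with the CPM filter, the covariate and DESeq2. DESeq2 also gave 3 higher with 0.1 nM at 18 h and 1 lower in the change of response to 10 nM.

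Leaving out each library in turn gave ranges of 16 to 24 higher and 10 to 14 lower for 10 nM against vehicle at 6 h and 6 to 11 and 11 to 17 at 18 h. Against 0.1 nM they were 16 to 19 and 6 to 9 at 6 h and 4 to 7 and 3 to 11 at 18 h. With 0.1 nM against vehicle they were 0 to 1 and 0 to 0 at 6 h and 0 to 2 and 1 to 2 at 18 h. For 10 nM at 18 h against 6 h 2 to 8 were lower, and 0 to 1 in the change of response. Weak regions, near 1 CPM, rest on few counts in the shallowest libraries, and differences there were detectable only when large. Scaling by library totals moved the median of all regions by 0.104 at 6 h and 0.106 at 18 h for 10 nM against vehicle (log2).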
